A study of Saccharomyces cerevisiae with 5 samples.

Results

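UDP-N-acetylglucosamine (UDP-GlcNAc), the sugar nucleotide from which chitin is polymerised, is made from fructose 6-phosphate in 4 enzymatic steps, and the mRNAs of the 4 enzymes were followed in chs2Δ and wild-type cells of budding yeast. The genes are GFA1 (YKL104C, chromosome XI), GNA1 (YFL017C, chromosome VI), PCM1 (YEL058W, chromosome V, also named AGM1) and QRI1 (YDL103C, chromosome IV, also named UAP1). They were chosen by name for their place in the pathway, not by a measured value, and were found by gene name or ORF among the gene spots of the arrays. All 4 were on the array and all 4 had a usable ratio, out of 6256 genes on the array and 6246 with a usable ratio. They occupied 8 of 10263 gene spots, with 1 probe spotted in duplicate for each gene.

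In the pathway, Gfa1, the glutamine-dependent amidotransferase, turns fructose 6-phosphate into glucosamine 6-phosphate, a step known to limit chitin synthesis in yeast. Gna1 acetylates glucosamine 6-phosphate with acetyl-CoA, Pcm1 moves the phosphate group to the anomeric carbon, and Qri1 joins the product to UTP and releases pyrophosphate. UDP-GlcNAc feeds the chitin synthases, of which Chs2 lays down the primary septum between mother and daughter cell. It also supplies the first sugars of N-linked glycans and of glycosylphosphatidylinositol anchors, and each of these 4 genes is essential for growth under standard conditions.

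The chs2Δ strain YFR23 carries chs2delta::KANR (chs2::KANMX4 in the series description) and was derived from the wild-type strain MGD353-46D by homologous recombination. Both strains are haploid MAT alpha and share cyhR, ADE+ and ARG and mutant alleles of HIS3, LEU2, URA3 and TRP1. The deletion was represented by 1 strain only, so differences between strains other than the deletion cannot be told apart from its effect. Cultures of both strains grew at 26 °C in complete synthetic medium with 2% glucose, for which the sources also name a histidine dropout, to an OD600 of 0.5 to 0.8. The cRNA amplified from 1.0 µg of RNA of 1 culture of either strain was hybridised to each of 5 two-colour Agilent yeast oligonucleotide arrays at 60 °C for 17 h. Cy5 marked the chs2Δ cRNA in replicates 1, 3 and 5, and Cy3 marked it in replicates 2 and 4. Replicate 1 lay on slide 1, replicates 2 and 3 on slide 2, and replicates 4 and 5 on slide 3. The arrays were taken as independent culture pairs, as the methods of the study state, although the series description elsewhere speaks of triplicate cultures. If the cultures were not separate, the p-values would measure only the technical spread between arrays.

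The titles of the arrays name YJR6, which in the paper is a myo1Δ strain, but their sources give YFR23, as does the paper. CHS2 was lower in chs2Δ than in wild type on all 5 arrays (log2 -0.81, SE 0.17, adjusted p = 0.0025 from limma) and MYO1 was lower as well (log2 -0.31). The chs2Δ signal of CHS2 stayed above background on 4 arrays, and where its probe lies relative to the deletion was not analysed here. On every array chs2Δ was read in the dimmer channel, with median gene-spot signals of 77.5 to 197 intensity units over background in chs2Δ and 213 to 431 units in wild type. Against 36% of all genes called lower with loess, markers of α cells were lower in chs2Δ in 5 of 5 cases (log2 -2.53 to -0.56). Their summed signal was 482 to 1191 intensity units in chs2Δ and 9369 to 17279 units in wild type, although both strains are given as MAT alpha. Against 71.6% of all genes called, 1 of 7 a-cell markers was higher, 0 were lower and 6 did not pass. The summed signal of the 7 was 200 to 729 units in chs2Δ and 348 to 747 units in wild type. MFA1, MFA2, STE2, BAR1 and ASG7 were above background on 0 arrays in chs2Δ, STE6 on 5 and AGA2 on 3. In wild type MFA1 and STE2 were above background on 2 arrays, MFA2 on 1, BAR1 on 0, ASG7 and AGA2 on 4 and STE6 on 5. Whether the difference in mating-type markers has any part in the values of the pathway genes was not tested.

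The pathway did not move as a unit in chs2Δ cells. Relative to wild type, PCM1, for the third step, was 1.82-fold higher in chs2Δ and GFA1, for the first step, was 1.22-fold higher with loess but lower with median centring, whereas QRI1, for the last step, fell to 0.639 of the wild-type level and GNA1, for the second step, to 0.909. These are ratios after normexp background correction and a loess curve on each array, which place the centre of each array at 0. When the arrays were only centred on their medians, without loess, QRI1 and GNA1 stayed lower, PCM1 no longer passed (log2 0.063) and GFA1 was lower instead of higher (log2 -0.40). At an adjusted p below 0.05 in limma 2 of the 4 genes were called higher and 2 lower. Direction and call were kept under 23 of 23 alternatives for QRI1, 22 for PCM1, 20 for GFA1 and only 12 for GNA1. These counts are not of independent checks, since nearly all alternatives kept the loess scaling. GFA1 turned direction in both that used median centring instead. Over the whole array 35.7% of 6246 genes tested were called higher and 36% lower, 71.6% in all, so that a call by itself does not set these genes apart. All 4 genes kept 1 direction on all 5 arrays (two-sided p = 0.062 for each gene by an exact sign-flip permutation test, the smallest that 5 arrays can give), as did 70.8% of the genes with a ratio on every array.

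**Figure D1:**
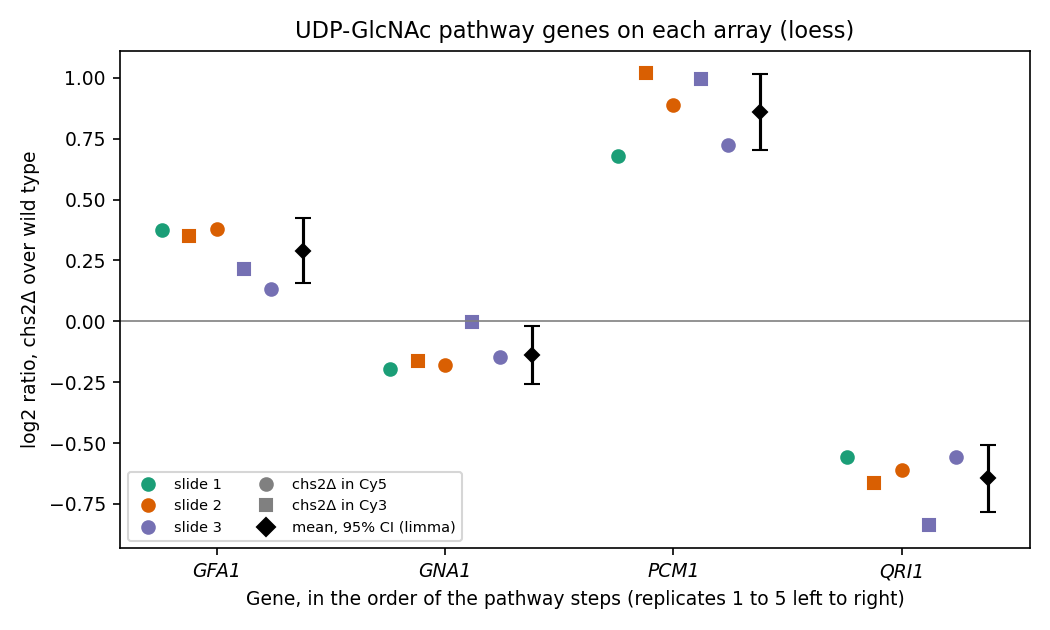
Log2 ratio of chs2Δ over wild type (vertical axis) for the 4 genes in pathway order, 1 point per array in replicate order, coloured by slide and shaped by the dye of the chs2Δ cRNA, with the limma mean and 95% confidence interval as a black diamond with bars. PCM1 lies between 0.68 and 1.02 and QRI1 between -0.84 and -0.56, and neither overlaps any of the other 3 genes, while GNA1 comes to -0.0021 in replicate 4.

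GFA1, which commits fructose 6-phosphate to amino sugars, gave signals over background of 492, 815, 530, 395 and 542 intensity units in chs2Δ in replicates 1 to 5, against 2115, 1522, 1818, 2089 and 1379 units in wild type. The chs2Δ signal was the lower of the pair on every array, as it was for the median gene spot. The groups did not overlap, and neither did those of the median gene spot (77.5 to 197 units in chs2Δ, 213 to 431 in wild type). How many gene spots share this was not counted, so it does not set GFA1 apart, nor GNA1 and QRI1 below. After scaling, the log2 ratios were 0.38, 0.35, 0.38, 0.22 and 0.13. The values on slides 1 and 2 were close to each other, and both arrays of slide 3 were lower. The mean was 0.29 (SE 0.06, 95% CI 0.16 to 0.42, adjusted p = 0.0021 from limma), which is 1.22-fold and lay at the 70.9th percentile of all genes tested. The arrays of slide 2 alone gave 0.36, and those of slide 3 alone gave 0.17, which did not pass (adjusted p = 0.276). With median centring the ratios were -0.36, -0.20, -0.31, -0.65 and -0.49, all below 0 (mean -0.40, adjusted p = 0.0011). When plain background subtraction was combined with median centring, an alternative chosen after the data had been seen, the mean was -0.048 and did not pass (adjusted p = 0.751). The direction of GFA1 therefore rests on how the arrays were scaled. The other processing alternatives left it higher.

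GNA1, the acetyltransferase, gave 93.0, 242, 107, 103 and 110 intensity units over background in chs2Δ, against 575, 521, 536, 552 and 333 units in wild type. Replicate 2 was the brightest chs2Δ reading, and the groups did not overlap, as was also true of the median gene spot. The log2 ratios were -0.20, -0.16, -0.18, -0.0021 and -0.15. Replicate 4 stood apart near 0, whereas the other arrays lay close together. The mean was -0.14 (SE 0.05, 95% CI -0.26 to -0.02, adjusted p = 0.0425 from limma), 0.909 of the wild-type level. This small fall was close to the threshold. It did not pass without replicate 1, 2, 3 or 5 (adjusted p = 0.092 to 0.134), passed without replicate 4 (log2 -0.17, adjusted p = 0.0155), and did not pass with no background correction (log2 -0.053) or with the slide as the replicate (adjusted p = 0.0768). The spots disagreed in size, since the first spot alone gave -0.049 (adjusted p = 0.470) and the second passed. With median centring the ratios were -0.47, -0.47, -0.50, -0.43 and -0.47, lower on every array and with little spread (mean -0.47).

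PCM1, the phosphoacetylglucosamine mutase, gave 1305, 2673, 1515, 1110 and 1330 intensity units over background in chs2Δ, against 4493, 3369, 3822, 3389 and 2424 units in wild type. Replicate 2 alone brought the chs2Δ signals up to the range of the wild type. The log2 ratios were 0.68, 1.02, 0.89, 0.99 and 0.72, and PCM1 lay at the 84.7th to 89.7th percentile of each array. Replicates 2 and 4, in which chs2Δ carried Cy3, were the highest, with a mean of 0.76 over the Cy5 arrays and 1.01 over the Cy3 arrays. That dye difference had an adjusted p of 0.236 in limma (unadjusted p = 0.047). The mean over all arrays was 0.86 (SE 0.07, 95% CI 0.71 to 1.02, adjusted p = 9.2e-06), 1.82-fold higher in chs2Δ. Within slide 2 the mean was 0.95 and within slide 3 it was 0.86, and both passed. With median centring the ratios were -0.12, 0.37, 0.06, 0.05 and -0.04, on both sides of 0 (mean 0.063, adjusted p = 0.475). With plain background subtraction and median centring together the mean was 0.47 and passed (adjusted p = 0.0056).

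QRI1, the UDP-GlcNAc pyrophosphorylase, gave 110, 229, 103, 73.0 and 95.7 intensity units over background in chs2Δ, against 982, 736, 767, 791 and 425 units in wild type. The groups did not overlap, as was also true of the median gene spot, and the strains lay further apart on every array than for the other 3 genes. The log2 ratios were -0.56, -0.66, -0.61, -0.84 and -0.56, within the lowest 8.29% to 14.2% of each array. Replicate 4 was the lowest, and there the 2 spots differed most, by 0.79 log2. The mean was -0.65 (SE 0.06, 95% CI -0.78 to -0.51, adjusted p = 2.3e-05 from limma), 0.639 of the wild-type level. This fall passed under each of the alternatives tried, those within slide 2 and slide 3 included, and its size moved with the processing. It was smallest with no background correction (log2 -0.38, 0.770 of the wild-type level) and largest with median centring (log2 -1.07, with -1.06, -1.03, -1.04, -1.32 and -0.91 on the arrays). The chs2Δ readings of QRI1 stood 2.19 to 7.17 background SD over background.

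None of the spots of the 4 genes carried a quality flag or was saturated. All 10 readings per gene and channel, from 2 spots on 5 arrays, were above background by more than 2 background SD. The lowest chs2Δ readings were 10.0 SD for GFA1, 3.03 SD for GNA1 and 32.9 SD for PCM1. Levels of different genes were not compared, because each probe binds with its own strength. RNA came from whole cultures, so fewer cells with a transcript and less transcript per cell cannot be told apart.

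**Figure D2:**
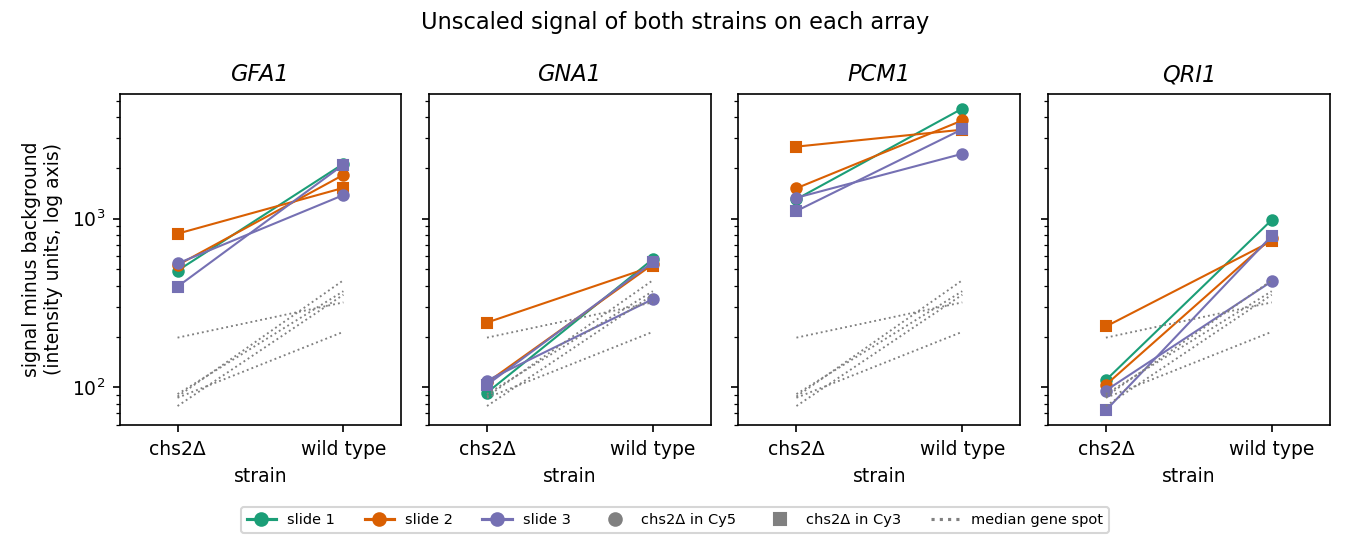
Signal over local background in intensity units (log axis) of each gene in chs2Δ (left) and wild type (right), before scaling, with 1 line per array coloured by slide and shaped by the dye of the chs2Δ cRNA, and dotted lines for the median gene spot of each array. Every line runs lower in chs2Δ, as do the dotted lines, and QRI1 has the steepest lines, down to 73.0 units in chs2Δ against 791 units in wild type in replicate 4.

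Differences between the genes were larger than their SD over arrays, though 5 arrays cannot give a p below 0.062. PCM1 lay above QRI1 by 1.51 log2 (SD 0.26 over 5 arrays, range 1.24 to 1.83), a 2.84-fold difference in relative change between the enzymes of the third and the last step. PCM1 lay above GNA1 by 1.00 log2 (SD 0.13) and above GFA1 by 0.57 (SD 0.18). GFA1 exceeded QRI1 by 0.94 log2 (SD 0.14) and GNA1 by 0.43 (SD 0.17), and GNA1 exceeded QRI1 by 0.51 (SD 0.19). The sign of each of the 6 differences was the same on 5 of 5 arrays (by the exact permutation of signs p = 0.062 for each pair, and 0.062 after adjustment over the 6 pairs, again the smallest possible). The order PCM1, GFA1, GNA1, QRI1 was seen on 5 of 5 arrays with loess and on 3 of 5 with median centring. With median centring the difference between GFA1 and GNA1 shrank to 0.067 log2, while PCM1 remained the highest and QRI1 the lowest on all 5 arrays, 1.13 log2 apart. PCM1 was also the highest and QRI1 the lowest on every array under each other alternative.

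Loess raised all 4 genes relative to median centring, but by unequal amounts. The shift was 0.69 log2 for GFA1 (0.55 to 0.86 on single arrays), 0.80 for PCM1 (0.65 to 0.94), 0.43 for QRI1 (0.35 to 0.50) and 0.33 for GNA1 (0.27 to 0.43). Over the whole array 3424 of the 4473 genes called were called in the same direction with median centring and 320 in the opposite direction, GFA1 among the 320. Which scaling lies nearer to the mRNA content of the cells was not tested.

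**Figure D3:**
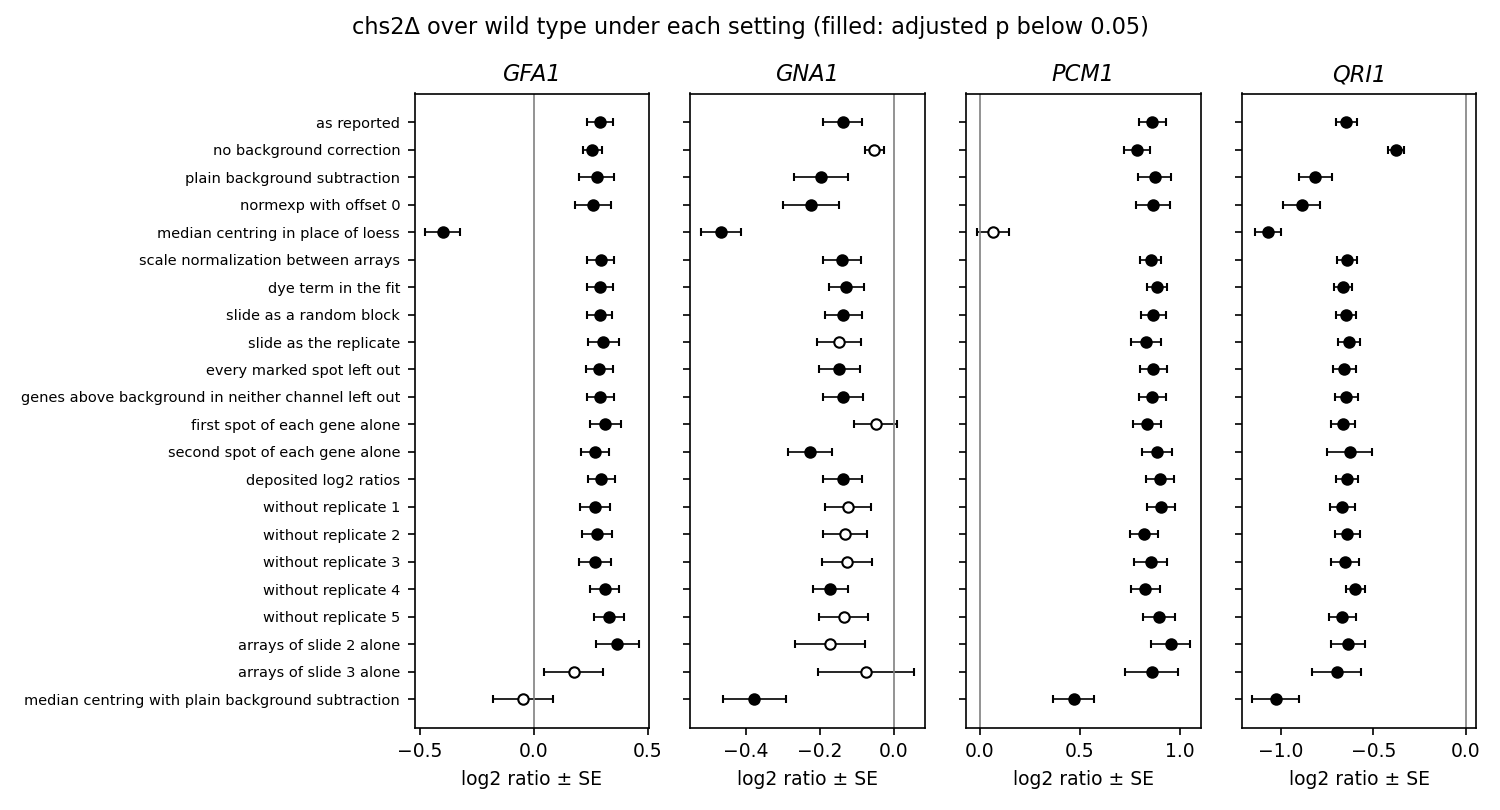
Mean log2 ratio of chs2Δ over wild type with its standard error (horizontal axes) for each gene under the reported processing and each alternative (rows), filled where the adjusted p was below 0.05 and open where it was not. QRI1 is filled and below 0 in every row, GNA1 is open in several, GFA1 is open on slide 3 alone and lies below 0 in both rows with median centring (-0.40 and -0.048), and PCM1 is open only at 0.063 with median centring after normexp.

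Upstream of Gfa1, genes of sugar phosphorylation and of the routes into and out of fructose 6-phosphate went both ways. All 14 genes passed the test, 7 higher and 7 lower, and their median log2 ratio was -0.11, against -0.0062 over all genes. Under median centring 6 were higher and 8 lower (median -0.80). Over all genes tested 71.6% passed. HXK1, a hexokinase, was 9.39-fold higher in chs2Δ (log2 3.23, SE 0.33, adjusted p = 4.1e-05 from limma), and GLK1, the glucokinase, 5.49-fold. HXK2, the hexokinase of growth on glucose, was at 0.489 of the wild-type level (log2 -1.03), on the 3 arrays where its spots were usable. PGI1, the isomerase that makes fructose 6-phosphate from glucose 6-phosphate, was at 0.702 (log2 -0.51, 4 arrays), and PMI40, which takes fructose 6-phosphate to mannose 6-phosphate, at 0.429 (log2 -1.22). PFK2, a subunit of phosphofructokinase, was at 0.449, while PFK26, which makes the activator of that enzyme, was 5.63-fold higher. FBP1, the gluconeogenic bisphosphatase, was 1.99-fold higher. Median centring put PGI1 at 0.382, HXK2 at 0.269, PFK2 at 0.263 and PMI40 at 0.261, each further below wild type, and gave smaller ratios of 3.31-fold for GLK1 and 3.53-fold for PFK26. HXK1 was 5.51-fold higher with no background correction and 14.3-fold on slide 3 alone.

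The co-substrates of the pathway are glutamine for Gfa1, acetyl-CoA for Gna1 and UTP for Qri1. Of 6 genes that supply them or remove pyrophosphate, 1 was higher, 2 were lower and 3 did not pass, so that 50% were called, against 71.6% over all genes. GLN1, the glutamine synthetase, had a log2 ratio of 0.12 (adjusted p = 0.521, 4 arrays), with -0.53 in replicate 2 and 0.23 to 0.41 on the other arrays, and was lower with median centring (log2 -0.86). Without replicate 2 GLN1 was called higher (log2 0.33, adjusted p = 0.0092). The acetyl-CoA synthetases ACS1 (log2 0.24, adjusted p = 0.0575) and ACS2 (log2 -0.042, adjusted p = 0.492) did not pass. ACS1 passed under several alternatives, and with median centring ACS1 was higher (log2 0.83) and ACS2 lower (log2 -0.64). URA6, the uridylate kinase on the path to UTP, fell to 0.472 (log2 -1.08, SE 0.10, adjusted p = 2.6e-05). YNK1, the nucleoside diphosphate kinase, rose 1.99-fold (log2 0.99, adjusted p = 7.0e-05), and did not pass with median centring (log2 0.31, adjusted p = 0.0512). IPP1, the inorganic pyrophosphatase, was at 0.540 (log2 -0.89). With median centring URA6 was at 0.299 and IPP1 at 0.328.

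Among 13 measured genes of enzymes that consume or carry UDP-GlcNAc, 4 rose, 6 fell and 3 did not pass, and the median log2 ratio was -0.17. The 76.9% called were close to the 71.6% over all genes, of which 35.7% were higher and 36% lower. ERI1, also on the list, was not measured. The counts were 4 higher and 6 lower with median centring as well. Among the chitin synthases, CHS1, which repairs the septum during cell separation, rose 1.48-fold (log2 0.56, SE 0.06, adjusted p = 4.9e-05), and with median centring its log2 ratio was -0.093 and did not pass. CHS3, the catalytic subunit of chitin synthase III and the source of most cell wall chitin, was at 0.704 of the wild-type level (adjusted p = 1.4e-04, log2 -0.51, SE 0.06) and lower on 5 of 5 arrays. ALG7, which starts the N-glycan precursor with UDP-GlcNAc, was at 0.487 (log2 -1.04, SE 0.05, adjusted p = 1.2e-06). Of the enzyme pair that adds the next sugar, ALG13 was 2.03-fold higher (log2 1.02) and ALG14 had a log2 ratio of -0.17 that did not pass (adjusted p = 0.169). YEA4, a UDP-GlcNAc transporter of the endoplasmic reticulum, was 1.87-fold higher, and GNT1, a Golgi N-acetylglucosaminyltransferase, was at 0.589.

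The other nucleotide sugars are made from glucose and mannose phosphates by enzymes that parallel Pcm1 and Qri1. Of the 5 genes 3 rose and 2 fell, and the median log2 ratio was 1.62. All 5 were called, against 71.6% over all genes (35.7% higher and 36% lower). For UDP-glucose, PGM2, the major phosphoglucomutase, was 6.71-fold higher (log2 2.75, SE 0.28, adjusted p = 4.5e-05) and UGP1, the UDP-glucose pyrophosphorylase, 6.82-fold (log2 2.77, SE 0.24, adjusted p = 1.8e-05), whereas PGM1, the minor phosphoglucomutase, was at 0.520 of the wild-type level. For GDP-mannose, PSA1, the GDP-mannose pyrophosphorylase, was 3.08-fold higher (log2 1.62, SE 0.08, adjusted p = 1.2e-06) and SEC53, the phosphomannomutase, was at 0.372 (log2 -1.43). In these 2 branches the pyrophosphorylase was called higher, and in the UDP-GlcNAc branch QRI1 was called lower. The same directions were called with median centring, but the values moved, to 1.53-fold for PSA1, 3.82-fold for UGP1 and 0.236 for SEC53, with a median log2 ratio of 0.61. PGM2 was 3.72-fold higher with no background correction.

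Of 14 genes for partners of chitin synthase III and for chitin modification and breakdown, 6 rose, 3 fell and 5 did not pass (median log2 ratio 0.041), and the 64.3% called lay below the 71.6% over all genes. SKT5, the activator of Chs3, was 1.54-fold higher (log2 0.63, adjusted p = 2.9e-04), which did not pass with median centring (log2 0.037). CHS5 and BUD7, of the exomer coat that carries Chs3 to the cell surface, were 3.43-fold (log2 1.78, SE 0.11) and 2.15-fold (log2 1.10, SE 0.06) higher. CHS7, which lets Chs3 leave the endoplasmic reticulum, fell to 0.655 (log2 -0.61, SE 0.06). With median centring these values were 1.95-fold for CHS5, 1.46-fold for BUD7 and 0.438 for CHS7. CTS1, the chitinase of cell separation, had a log2 ratio of 0.044 (adjusted p = 0.572), and was lower with median centring (log2 -0.78).

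**Figure D4:**
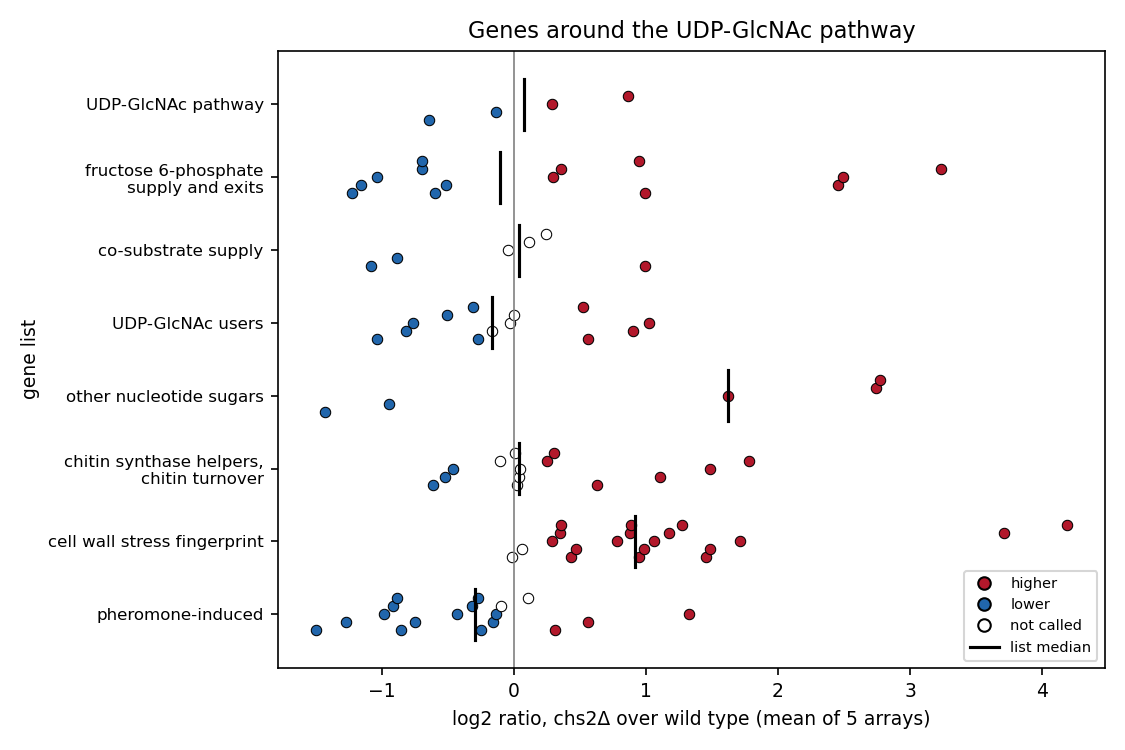
Mean log2 ratio of chs2Δ over wild type over 5 arrays (horizontal axis) for each gene of the lists around the pathway (rows), red where called higher, blue where called lower and white where not called, with a black bar at the list median. The 4 pathway genes spread over both sides of 0, as do the genes upstream and downstream, while 18 of 20 genes of the cell wall stress fingerprint lie above 0 as calls with loess (12 with median centring). Over all genes tested 35.7% were called higher with loess.

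GFA1 belongs to a fingerprint of 20 genes that the paper takes as common to cell wall stress. Of these, 18 rose, 0 fell and 2 did not pass with loess (median log2 ratio 0.92), while 12 rose and 7 fell with median centring and 12 rose and 0 fell with plain subtraction and median centring. Over all genes tested 35.7% were called higher and 36% lower with loess, and 83.1% were called in all with median centring. The paper had assessed this list on the same arrays, so its direction is not independent evidence. The paper marked the same genes as up-regulated except YPS4, which it gave as unchanged. Here YPS4, read as YLR121C, was called higher with loess (log2 1.17). GFA1 had the smallest ratio of the 18. SLT2, which encodes the MAP kinase of the cell wall integrity pathway, rose 1.28-fold with loess (log2 0.35, adjusted p = 0.0024) and was lower, like GFA1, with median centring (log2 -0.35). The paper's real-time RT-PCR put every gene it covered higher in chs2Δ, SLT2 only slightly and with no spread given. It covered none of the pathway genes and was not used here to choose a scaling. The other 3 pathway genes are not in the fingerprint.

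GFA1 and CHS1 are also known as genes that mating pheromone induces. Of 18 pheromone-induced genes, CHS1 included, 13 fell, 3 rose and 2 did not pass (median log2 ratio -0.29), with 7 lower and 2 higher on slide 3 alone. Of the list 88.9% were called, against 71.6% over all genes (36% lower and 35.7% higher). On slide 3 alone 53.1% of all genes were called. SST2, which desensitises the pheromone response, fell to 0.354 (log2 -1.50, SE 0.13, adjusted p = 1.3e-05), and FIG1, a membrane protein of mating cells, rose 2.50-fold (log2 1.32, adjusted p = 0.0016, SE 0.25), with a log2 ratio of 0.0091 in replicate 4. SST2 was at 0.605 with no background correction and 0.148 with normexp and an offset of 0, and the list median was -0.13 and -0.82 under these settings. With median centring 5 genes were higher and 10 lower.

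Genes most like each pathway gene were sought by the root-mean-square difference of the 5 log2 ratios among 6081 other genes with a ratio on every array. Nearest to GFA1 were GAL4 (0.05 log2), MEH1 and ROY1. Those nearest to GNA1 were HPR1 (0.03), YDR444W and NBP2, to PCM1 RPB3 (0.06), RGD1 and AVT5, and to QRI1 THI80 (0.05), YRA2 and RKR1. The pathway genes were not among each other's nearest, with 1379 to 5339 of these genes lying closer to a pathway gene than another pathway gene did. This distance is set largely by the mean ratios, so it restates the differences between the genes given above. In the annotation GFA1 overlaps YKL104W-A, which was not measured, and which of them the probe reads could not be checked. The adjacent genes were measured too. SEG2 next to GFA1 had a log2 ratio of 0.35, SMX2 and MDJ1 beside GNA1 -0.0013 and 1.21, HHY1 and SDD1 beside PCM1 0.50 and 0.14, and QRI7 and POL3 beside QRI1 0.98 and -0.16.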

How the data were processed

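The authors extracted RNA from chs2Δ and wild-type cultures, hybridised Cy3- and Cy5-labelled cRNA to 5 arrays and quantified the scans with ImaGene (version 6.0.0 per the file headers, an earlier one per the paper). The deposited scanner files give the raw intensity of each spot and its background. A deposited table of log2 ratios (Cy5 to Cy3), background-corrected and lowess-normalized by the authors in limma, served as an alternative. Its rows were named through spot order (correlation with the ratios computed here 0.9986 to 0.9997 over spots), and its arrays were turned for dye.

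Limma 3.58.1 and statmod 1.5.0 were run in R 4.3.3. Poor spots were dropped, empty ones were not. Normexp with an offset of 50 corrected the background, and a loess curve (span 0.3) was fitted on each array. Spots of a gene were averaged, ratios turned to chs2Δ over wild type, and lmFit and eBayes fitted over 5 arrays, with Benjamini-Hochberg adjustment over 6246 genes and a call below 0.05. The procedure was tested on simulated data, with planted changes in a small share of genes, as many higher as lower, and a constant dye difference. In the real data 71.6% of genes were called, so the simulation cannot show which scaling is the better one here. Above background means over 2 background SD. The number of arrays limits the precision.

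The 4 genes, the lists and the tests were chosen with earlier results of these data known. Named genes are the pathway genes, members of the lists, CHS2, MYO1, and the 3 genes nearest to each pathway gene. Neighbouring genes were added for position. YPS4 and MLP1 of the fingerprint were read as YLR121C and YKL161C. Alternatives changed the background correction, the scaling, the dye and slide terms, flags, spots, thresholds and arrays. The slides alone, and plain subtraction with median centring, were chosen after seeing the data. No base sequence of these genes was used here.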

Additional observations from a re-analysis of the deposited data

Results flagged for a closer look

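Of 46 results, HXK2 had usable ratios on 3 arrays, too few to test. Among the others, 7 had a single array far from the rest by Dixon's criterion, which chance meets in about 1 of 20 groups. GNA1 had a log2 ratio of -0.0021 in replicate 4, against -0.20 to -0.15 on the other arrays. HXK1 had 1.45 in replicate 1 (others 3.30 to 3.86), and UGP1 had 1.45 in replicate 1 (others 2.98 to 3.36). PGI1 had -1.0 in replicate 1 (others -0.35 to -0.34, 4 arrays). PMI40 had -1.35 in replicate 3 (others -1.21 to -1.16). IPP1 had -1.15 in replicate 4 (others -0.87 to -0.78). SST2 had -2.15 in replicate 2 (others -1.42 to -1.27).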

How the results depend on the processing

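No paired analysis was possible because no pairs were left to form beyond the arrays themselves, each of which already sets chs2Δ against wild type in every ratio, so that all fits are of paired values. QRI1 kept its direction and its call under all alternatives tried, between -1.07 and -0.38 log2. GFA1 was -0.40 with median centring, -0.048 with plain subtraction and median centring, and 0.17 (not called) on slide 3 alone. PCM1 was 0.063 (not called) with median centring. GNA1 lost its call with no background correction (-0.053), the slide as the replicate (-0.15), the first spot alone (-0.049), slide 2 alone (-0.17), slide 3 alone (-0.075), and, at -0.14, with thresholds of 0.01 on the adjusted or the unadjusted p. Leaving out each array gave -0.17 to -0.12 for GNA1, 0.27 to 0.33 for GFA1, 0.82 to 0.91 for PCM1 and -0.67 to -0.60 for QRI1. The cause was not tested.

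The difference between GFA1 and GNA1 was 0.067 with median centring and 0.25 on slide 3 alone. That between GFA1 and QRI1 was 0.63 with no background correction, 1.09 with plain subtraction, 1.15 with normexp and an offset of 0, and 0.67 with median centring. GNA1 minus PCM1 was -0.84 with no correction, -0.53 with median centring and -0.84 with plain subtraction and median centring. PCM1 minus QRI1 was 1.16 with no correction and 1.13 with median centring.

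Among the genes of the surrounding lists given with values, directions turned with median centring for GLN1 (-0.86), CHS1 (-0.093), CTS1 (-0.78) and SLT2 (-0.35), and with plain subtraction and median centring for GLN1 (-0.44) and CTS1 (-0.38). GLN1 also turned with a dye term (-0.10) and on slide 2 alone (-0.088), CTS1 on slide 2 alone (-0.048), and ACS2 with no background correction (0.017). The chs2Δ readings of QRI1 and GNA1 came down to 2.19 and 3.03 background SD over background, and their part in the size of the ratios was not tested.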
